A study of Homo sapiens with 6 samples.

Results

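The isocitrate dehydrogenases and malic enzymes are the enzymes that turn isocitrate into 2-oxoglutarate and malate into pyruvate while reducing NADP+ or NAD+. Members were taken as the probe sets whose only annotated gene symbol was IDH1, IDH2, IDH3A, IDH3B, IDH3G, ME1, ME2, ME3, NNT or NADK. They comprised 31 of the 54613 probe sets on the array, and 10 of the 19775 genes. Gene expression had been profiled in LP-1/Cfz, a derivative of the human multiple myeloma line LP-1 that resists 12 nM of the proteasome inhibitor carfilzomib, and in parental LP-1 cells never selected in the drug. The LP-1/Cfz cells were kept for 1 week without carfilzomib before RNA was taken, and per the labels both lines grew in medium with 4% serum. Each group had 3 Affymetrix U133 Plus 2.0 arrays, 1 per sample. LP-1/Cfz is a single resistant line, and no label says whether the 3 samples of a line came from different cultures. The spread behind each p-value is that between the samples and may be technical.

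NADPH supplies the electrons that keep glutathione and thioredoxin reduced and that fatty acid synthesis consumes. IDH1 in the cytosol and IDH2 in mitochondria make it from isocitrate, ME1 in the cytosol and ME3 in mitochondria make it from malate, and NNT in the inner mitochondrial membrane passes electrons from NADH to NADP+. The citrate cycle itself runs through the NAD-linked isocitrate dehydrogenase, built of the catalytic subunit IDH3A with IDH3B and IDH3G, while ME2 is the mitochondrial malic enzyme that prefers NAD+. NADK makes NADP+ by phosphorylating NAD+ in the cytosol. Myeloma cells, being malignant plasma cells, secrete large amounts of disulfide-bonded protein and carry a heavy load on the proteasome.

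The deposited values are log2 values that had been centred for each probe set on a baseline not stated in the sources used here, so that a difference between arrays can be read while the level of a gene, or which of 2 enzymes was the more abundant, cannot. For the same reason the cell type could not be checked by the level of its markers, and only their differences could be read. Of 12 plasma cell markers, 3 were higher, 2 were lower (SLAMF7 and CD38) and 7 were not called, while 1 of 8 measured markers of T or NK cells was higher, 1 was lower, and 0 of 7 myeloid and 0 of 7 stromal markers were called. LP-1/Cfz array 3 stood apart from the other arrays of its group, with correlations over all probe sets of 0.891 and 0.903, against 0.941 between the other pair of LP-1/Cfz arrays and 0.933 to 0.945 among the LP-1 arrays.

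Across the enzymes, IDH2 and ME2 were lower and IDH3G was higher in LP-1/Cfz than in LP-1 cells, and the other 7 genes did not pass the test. By gene (the mean of its probe sets), the difference was -0.86 on the log2 scale for IDH2, -0.35 for ME2 and 0.35 for IDH3G, which is 1.81-fold lower, 1.27-fold lower and 1.28-fold higher. By probe set, 8 of the 31 were called at an adjusted p under 0.05 (limma, adjusted over all probe sets), 2 higher and 6 lower, where 11.0% of all probe sets on the array were called, 4.25% higher and 6.76% lower. The 3 called genes of 10 stand beside 16.7% of all genes, with 1328 genes higher (6.72%) and 1984 lower. The groups of arrays did not overlap for 13 of the 31 probe sets and 5 of the 10 genes, against 30.7% of all probe sets and 35.9% of all genes. The median difference was 0.05 on the log2 scale over the 31 probe sets and 0.02 over all probe sets. Of the NADPH producers, only IDH2 passed by gene, while among the NAD-linked enzymes and NADK 1 gene was higher and 1 lower. In cells of 1 type, less of a transcript can come from fewer transcripts in each cell or from fewer cells that make it, and arrays of bulk RNA cannot tell these apart.

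**Figure D1:**
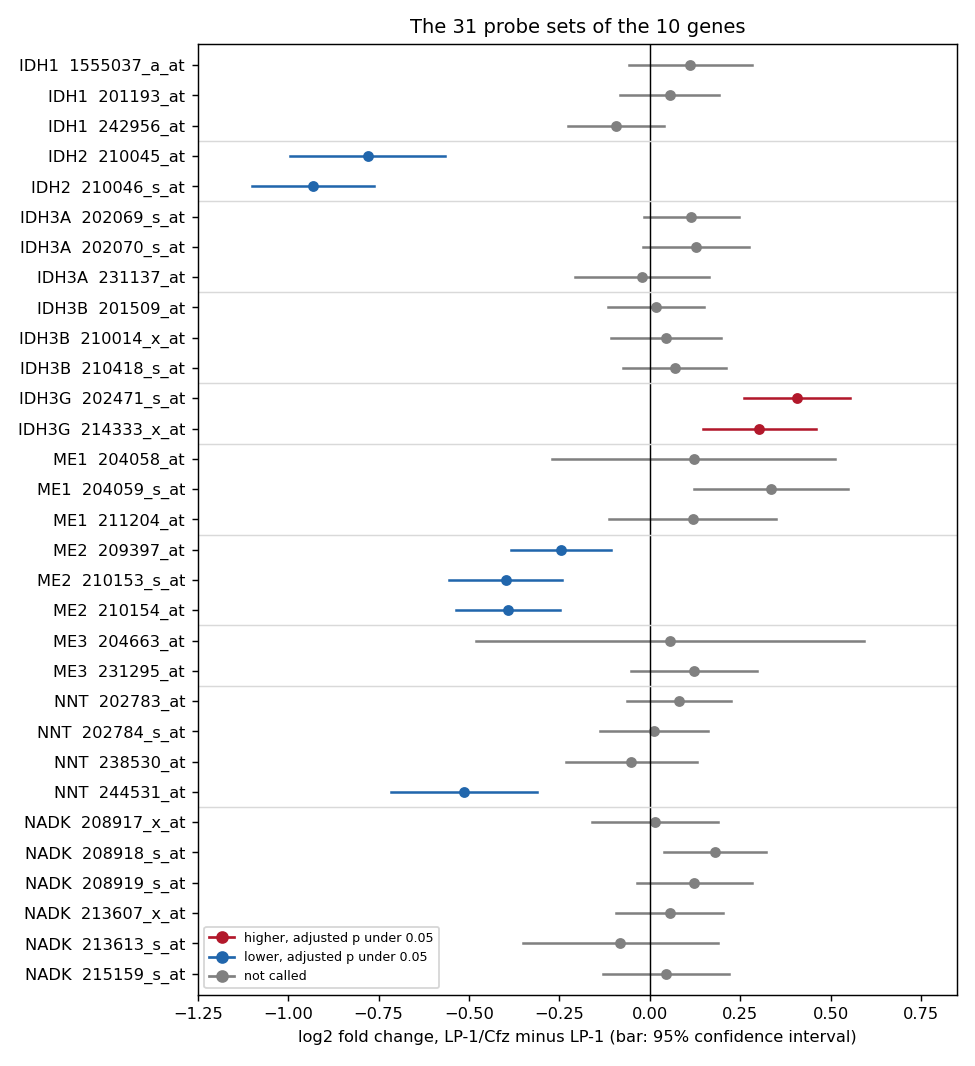
Difference between LP-1/Cfz and LP-1 (x axis, log2 scale) for each of the 31 probe sets of the 10 genes (rows), with points for the estimate and bars for its 95% confidence interval (limma, 3 arrays per group). The pair of IDH2 probe sets lie farthest to the left at -0.93 and -0.78, the 3 of ME2 and 1 of the 4 of NNT are also lower, and the pair of IDH3G probe sets are higher at 0.41 and 0.30.

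IDH2, the mitochondrial NADP-linked isocitrate dehydrogenase, had the largest difference of the 10 genes. Its probe set 210046_s_at had log2 values of -1.90, -1.96 and -2.11 on the LP-1/Cfz arrays, against -1.03, -1.04 and -1.11 on the LP-1 arrays. The second probe set, 210045_at, had -1.64, -1.74 and -1.71 on the LP-1/Cfz arrays, against -0.72, -1.04 and -0.98 on the LP-1 arrays. All LP-1/Cfz arrays were below all LP-1 arrays for each probe set, and the gap between the groups was wider than the spread within either. The difference was -0.93 ± 0.073 (SE, adjusted p = 0.000207) for 210046_s_at and -0.78 ± 0.0923 (SE, adjusted p = 0.00158) for 210045_at, or 1.91-fold and 1.72-fold lower. These were the only members past a fold of 1.7, the cutoff used in the study, which 1.59% of all probe sets passed, 1.14% in the lower direction. Both had been listed in the study among genes picked from these same arrays, and their direction is therefore not independent evidence. By gene, 1.33% of all genes changed by at least as much as IDH2 in either direction, and IDH2 ranked 207 among all genes in the size of the fall.

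ME2, the mitochondrial malic enzyme that prefers NAD+, was lower by all of its 3 probe sets. With 210154_at, log2 values were 0.36, 0.42 and 0.29 on the LP-1/Cfz arrays, against 0.75, 0.71 and 0.78 on the LP-1 arrays. With 210153_s_at, they were 0.32, 0.33 and 0.30 on the LP-1/Cfz arrays and 0.70, 0.63 and 0.81 on the LP-1 arrays. No LP-1/Cfz array reached the lowest LP-1 array with either. The differences were -0.39 ± 0.0625 (SE, adjusted p = 0.00622) and -0.40 ± 0.0671 (SE, adjusted p = 0.00787). The remaining probe set, 209397_at, read 0.26, 0.30 and 0.20 on the LP-1/Cfz arrays, against 0.47, 0.51 and 0.51 on the LP-1 arrays. Its groups did not overlap either, but its smaller difference of -0.25 ± 0.06 (SE, adjusted p = 0.0376) lost the call when any 1 of the 6 arrays was left out, with adjusted p of up to 0.135, and the gene-level call held in each of these settings.

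IDH3G, a regulatory subunit of the NAD-linked isocitrate dehydrogenase, was the only member that was higher. Its probe set 202471_s_at had log2 values of 0.30, 0.21 and 0.16 on the LP-1/Cfz arrays, against -0.17, -0.21 and -0.16 on the LP-1 arrays. Its other probe set, 214333_x_at, had 0.14, 0.09 and 0.06 on the LP-1/Cfz arrays, against -0.22, -0.29 and -0.11 on the LP-1 arrays. All LP-1/Cfz arrays lay above all LP-1 arrays with each probe set. The difference was 0.41 ± 0.0634 (SE, adjusted p = 0.00558) for 202471_s_at and 0.30 ± 0.0679 (SE, adjusted p = 0.0271) for 214333_x_at. The call of 214333_x_at was lost without LP-1/Cfz array 1 or 2 or without LP-1 array 1 or 2, with adjusted p of up to 0.1. Its suffix marks probes that can also match other transcripts.

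**Figure D2:**
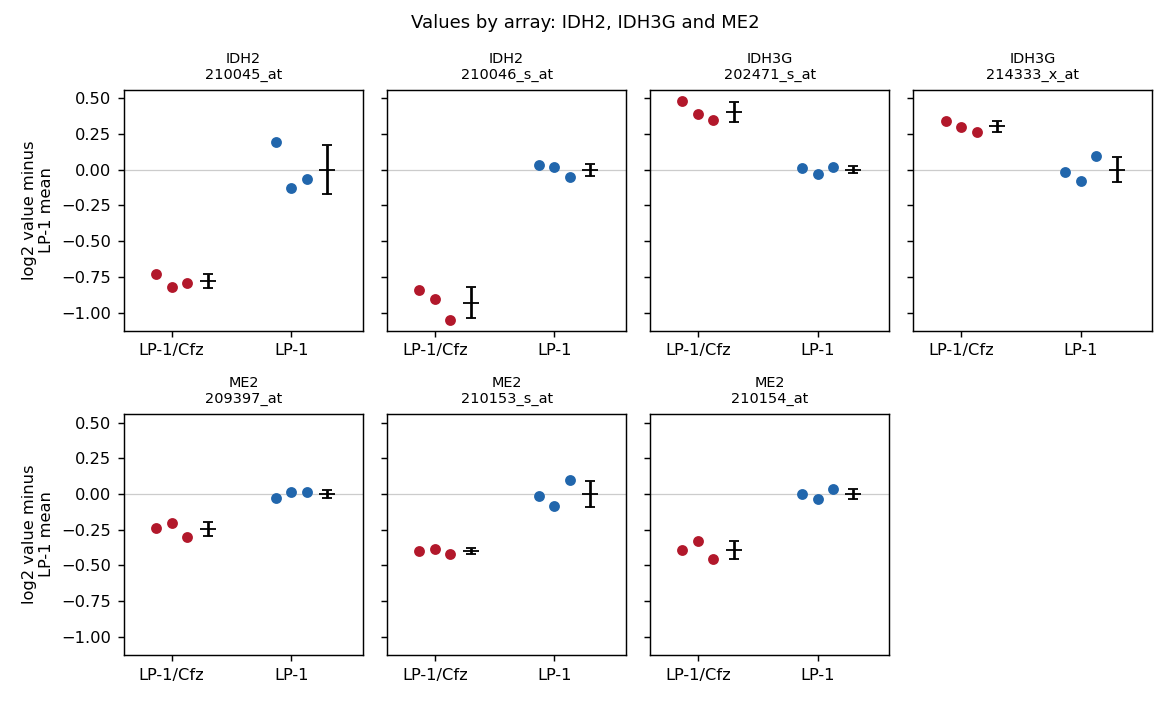
Log2 value of each array minus the mean of the 3 LP-1 arrays (y axis) for the probe sets of IDH2, IDH3G and ME2, with LP-1/Cfz arrays in red and LP-1 arrays in blue (x axis), and mean ± SD beside each group. In every panel the 3 LP-1/Cfz points lie on one side of all 3 LP-1 points, lower for IDH2 and ME2 and higher for IDH3G.

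The partner subunits of IDH3G did not pass the test. IDH3A, the catalytic subunit, had log2 values of 0.07, 0.09 and 0.04 on the LP-1/Cfz arrays and -0.06, -0.06 and -0.03 on the LP-1 arrays with 202069_s_at. With 202070_s_at it had 0.21, 0.21 and 0.16 on the LP-1/Cfz arrays and 0.08, -0.007 and 0.12 on the LP-1 arrays. The groups did not overlap with either, but the differences of 0.11 and 0.13 were small (adjusted p = 0.273 and 0.268), and the groups did overlap with the remaining probe set, 231137_at (-0.02, adjusted p = 0.902). By gene, the difference of IDH3A was 0.07, with a 95% confidence interval of -0.03 to 0.18. IDH3B, which joins IDH3A in the holoenzyme, differed by 0.02, 0.04 and 0.07 with its 3 probe sets, each with overlapping groups. Its gene-level difference was 0.04, with an interval of -0.07 to 0.16 (adjusted p = 0.621).

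IDH1, the cytosolic counterpart of IDH2, did not pass by any of its 3 probe sets. It had log2 values of 0.44, 0.42 and 0.37 on the LP-1/Cfz arrays and 0.31, 0.39 and 0.36 on the LP-1 arrays with 201193_at. With 1555037_a_at it had 0.46, 0.48 and 0.34 on the LP-1/Cfz arrays and 0.25, 0.41 and 0.29 on the LP-1 arrays. The groups overlapped with each of these. With 242956_at, by contrast, they did not, and the LP-1/Cfz arrays were the lower ones at 0.03, 0.02 and 0.05, against 0.13, 0.16 and 0.10 on the LP-1 arrays (difference -0.09, adjusted p = 0.369). By gene, the difference of IDH1 was 0.02, with an interval of -0.09 to 0.14, which leaves out a change of the size of IDH2 in either direction.

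ME1, the cytosolic malic enzyme and a known target of the transcription factor Nrf2, gave an unsettled picture. With 204059_s_at its log2 values were -0.04, -0.21 and 0.12 on the LP-1/Cfz arrays, against -0.40, -0.43 and -0.31 on the LP-1 arrays. All LP-1/Cfz arrays were the higher ones, and the difference of 0.34 ± 0.0918 (SE, 95% confidence interval 0.12 to 0.55) just missed the threshold (adjusted p = 0.0566). The adjusted p was under the threshold in 5 of 11 alternative settings, for example 0.0239 without LP-1/Cfz array 2 and 0.0314 after quantile normalization. In the others it stayed above the threshold, at up to 0.172 without LP-1 array 2. Without LP-1/Cfz array 3 the difference of this probe set was 0.25 (adjusted p = 0.103). With 204058_at, values were -0.15, -0.16 and 0.49 on the LP-1/Cfz arrays and 0.04, -0.16 and -0.05 on the LP-1 arrays. Only LP-1/Cfz array 3, the array that stood apart, was high, and without it the difference of 0.12 became -0.10. With 211204_at the groups overlapped, with a difference of 0.12 (adjusted p = 0.529). By gene, ME1 differed by 0.19, with an interval of -0.05 to 0.43 (adjusted p = 0.271). Without LP-1/Cfz array 3 the difference by gene was 0.07.

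ME3, the mitochondrial NADP-linked malic enzyme, varied more within the groups than between them. With 204663_at it had log2 values of -1.23, -1.03 and -0.56 on the LP-1/Cfz arrays and -0.53, -1.10 and -1.36 on the LP-1 arrays. Each group held high and low arrays, and the difference of 0.05 had an interval of -0.48 to 0.59. The second probe set, 231295_at, differed by 0.12 (adjusted p = 0.376). Without LP-1/Cfz array 3 the difference of 204663_at was -0.13, so that a direction could not be read for ME3.

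NNT, the transhydrogenase, differed between its probe sets. With 244531_at, log2 values were -0.03, 0.20 and 0.03 on the LP-1/Cfz arrays, against 0.63, 0.66 and 0.45 on the LP-1 arrays. All LP-1/Cfz arrays were lower than all LP-1 arrays, with a difference of -0.51 ± 0.0869 (SE, adjusted p = 0.00805). The other 3 probe sets differed by 0.08, 0.01 and -0.05, with overlapping groups and adjusted p of 0.481, 0.938 and 0.746. By gene the difference was -0.12 (interval -0.25 to 0.01, adjusted p = 0.199), and without 244531_at it was 0.01 (adjusted p = 0.888). That setting, and the contrast of 244531_at with the mean of the other 3, were chosen after the values had been seen. The contrast was -0.63, -0.45 and -0.50 on the LP-1/Cfz arrays and 0.07, 0.05 and -0.11 on the LP-1 arrays, each minus the LP-1 mean, a difference of -0.53 with no overlap (two-sided exact permutation test, p = 0.1, the smallest that 3 against 3 arrays allow). Which transcript of NNT 244531_at reads was not determined here.

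**Figure D3:**
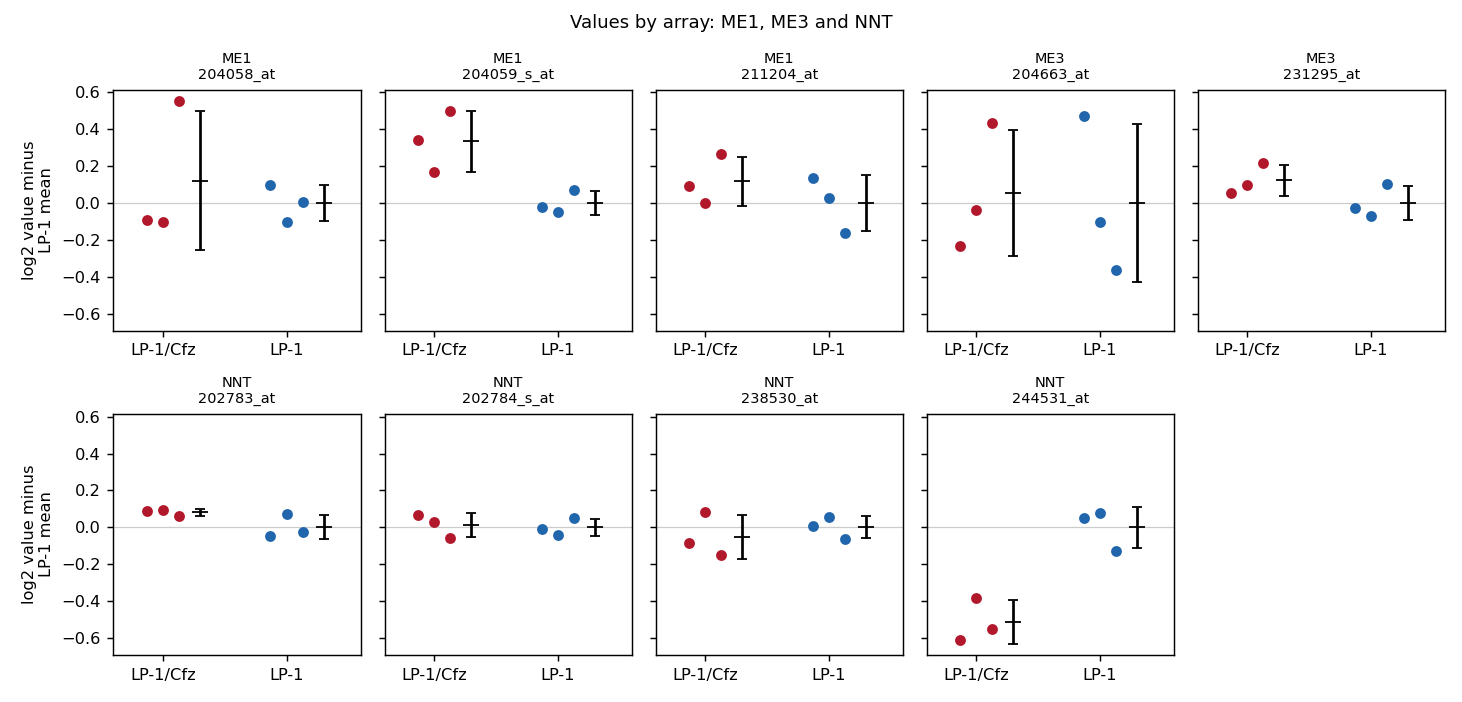
Log2 value of each array minus the mean of the 3 LP-1 arrays (y axis) for the probe sets of ME1, ME3 and NNT, with LP-1/Cfz arrays in red and LP-1 arrays in blue (x axis), and mean ± SD beside each group. The groups separate for ME1 204059_s_at, where LP-1/Cfz is higher, and for NNT 244531_at, where LP-1/Cfz is lower; ME1 204058_at and ME3 204663_at spread over more than 0.5 within a group.

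NADK, the cytosolic NAD kinase, had 6 probe sets, whose differences ran from -0.08 to 0.18 with none called. The lowest adjusted p was 0.113, for 208918_s_at, which had log2 values of -0.17, -0.19 and -0.23 on the LP-1/Cfz arrays, against -0.38, -0.32 and -0.43 on the LP-1 arrays. This was the only NADK probe set whose groups did not overlap, with LP-1/Cfz the higher. By gene, NADK differed by 0.06, with an interval of -0.08 to 0.19.

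To ask whether related enzymes changed unequally, the log2 ratio of 6 pairs of the genes was taken on each array. A ratio of centred values has no absolute level, and only its difference between the groups can be read. The log2 ratio of IDH2 to IDH1 was -0.83, -0.91 and -0.91 on the LP-1/Cfz arrays, against 0.15, -0.11 and -0.04 on the LP-1 arrays, each minus the mean of the LP-1 arrays. It was thus lower in LP-1/Cfz by 0.88 on the log2 scale, and the ratio of IDH2 to IDH3A differed by -0.93. The ratio of ME1 to ME2 was higher in LP-1/Cfz by 0.54 and that of ME3 to ME2 by 0.43, while within the NAD-linked complex the ratio of IDH3A to IDH3G was lower, with a difference of -0.28. The groups of arrays did not overlap for these 5 pairs, for each of which the two-sided exact permutation test gave its smallest possible p of 0.1 (0.12 adjusted over the 6 pairs), so that none could pass at 0.05. Each of these 5 pairs holds IDH2, ME2 or IDH3G, which were called by gene, so that the ratios are not independent of those calls. The share of other gene pairs whose groups do not overlap was not computed. For ME3 to ME2 the lowest LP-1/Cfz array, at 0.25, was close to the highest LP-1 array, at 0.23, and with only plain _at probe sets the groups overlapped (difference 0.41, exact p = 0.2). For IDH3A and IDH3B the groups overlapped, with a difference of 0.03 (exact p = 0.5).

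**Figure D4:**
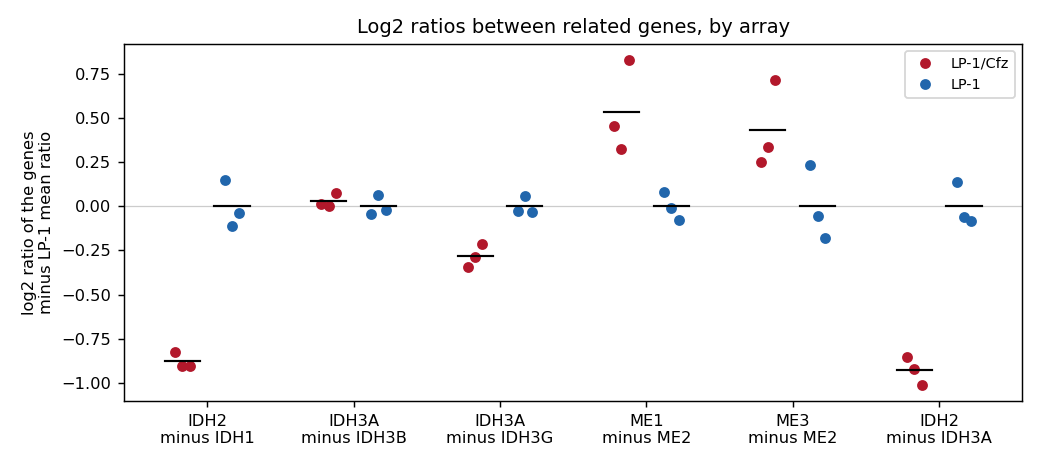
Log2 ratio of 6 pairs of genes on each array, minus the mean ratio of the LP-1 arrays (y axis), for LP-1/Cfz (red) and LP-1 (blue), with lines at the group means. IDH2 is lower in LP-1/Cfz against both IDH1 and IDH3A, ME1 and ME3 are higher against ME2, and IDH3A and IDH3B keep overlapping ratios.

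The RefSeq promoter windows of the genes, from 250 bases before to 50 bases after an annotated start (build GRCh38.p14), were searched on both strands for the antioxidant response element core TGACNNNGC that Nrf2 and its small Maf partners bind, the NF-E2/AP-1 core TGANTCA, the ATF4 response element TGATGNAA and the E-box CACGTG. All 10 genes matched, with 16 windows. The antioxidant core was found in 3 of the 16 windows, 1 each of IDH1, IDH3G and ME1, and in 13.3% of all 35116 windows of the same length. The NF-E2/AP-1 core was found in 1 window, that of ME1 (7.71% of all windows), where it overlaps an antioxidant core. The E-box was found in 4 windows, of ME3, NNT and NADK (7.26%), and the ATF4 element in 0 of the 16 windows (3.62%). A match is only a run of letters, and its absence says only that these letters are not in the window. The windows of the 3 genes with an antioxidant core are shown 5′ to 3′ on the strand of the gene, with matches to the searched motifs in capitals, to set IDH3G, which was higher, beside ME1 and IDH1, which were not called. The only IDH2 window of the table, which holds none of the 4 motifs, is shown with them because IDH2 had the largest difference. It lies inside the span annotated for IDH2, so that it belongs to an internal start and the promoter of the longest transcript was not searched.
IDH3G (chrX:153794326-153794625, minus strand): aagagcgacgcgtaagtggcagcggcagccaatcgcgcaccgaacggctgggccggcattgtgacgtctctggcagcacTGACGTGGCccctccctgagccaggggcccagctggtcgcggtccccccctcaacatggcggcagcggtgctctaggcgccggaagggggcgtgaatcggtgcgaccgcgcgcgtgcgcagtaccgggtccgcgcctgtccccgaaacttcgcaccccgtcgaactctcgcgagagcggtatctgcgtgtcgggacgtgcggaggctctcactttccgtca
ME1 (chr6:83431002-83431301, minus strand): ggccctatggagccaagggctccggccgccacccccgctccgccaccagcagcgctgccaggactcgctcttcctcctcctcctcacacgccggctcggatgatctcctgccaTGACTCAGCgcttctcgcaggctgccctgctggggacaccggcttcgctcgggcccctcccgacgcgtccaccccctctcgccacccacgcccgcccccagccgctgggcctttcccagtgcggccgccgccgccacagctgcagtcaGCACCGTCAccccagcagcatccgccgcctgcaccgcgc
IDH1 (chr2:208255022-208255321, minus strand): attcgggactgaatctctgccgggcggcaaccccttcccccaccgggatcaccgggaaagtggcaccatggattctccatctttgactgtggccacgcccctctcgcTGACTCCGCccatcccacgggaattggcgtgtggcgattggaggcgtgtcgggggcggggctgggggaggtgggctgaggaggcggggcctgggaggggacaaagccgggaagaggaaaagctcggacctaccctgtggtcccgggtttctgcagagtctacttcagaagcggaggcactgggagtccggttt
IDH2 (chr15:90100572-90100871, minus strand): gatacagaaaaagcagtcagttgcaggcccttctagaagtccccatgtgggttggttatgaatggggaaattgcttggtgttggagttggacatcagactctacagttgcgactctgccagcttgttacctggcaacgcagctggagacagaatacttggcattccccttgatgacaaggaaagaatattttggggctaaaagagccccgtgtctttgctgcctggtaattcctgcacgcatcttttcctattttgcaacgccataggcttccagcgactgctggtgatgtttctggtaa
The match of IDH3G begins 171 bases before the start and that of IDH1 143 bases before it. ME1 holds a match 137 bases before the start and another, on the opposite strand, that begins at transcribed base 12. NFE2L2, which encodes Nrf2, differed by 0.06 (adjusted p = 0.445). KEAP1, which holds Nrf2 for degradation, had log2 values of -0.21, -0.27 and -0.28 on the LP-1/Cfz arrays and 0.01, -0.02 and 0.02 on the LP-1 arrays, lower on all LP-1/Cfz arrays (-0.26 ± 0.0478, SE, adjusted p = 0.0091). That value rests on 1 probe set. At the protein level, the paper reports no reduction of Keap1 in LP-1/Cfz against parental cells.

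The genes that surround these enzymes in metabolism were read from lists, by gene. The counts in these lists, and in the marker lists above, stand beside 16.7% called among all 19775 genes, 1328 higher and 1984 lower. No list was tested for an excess of called genes over all genes. Among 20 measured genes of the citrate cycle and its entry and exit steps, 1 was higher and 1 lower, with a median of -0.01. These were PCK2, which makes phosphoenolpyruvate from oxaloacetate in mitochondria (0.25, adjusted p = 0.0348), and OGDH, the 2-oxoglutarate dehydrogenase next after isocitrate dehydrogenase (-0.21, adjusted p = 0.0399). IDH2 thus had a larger difference than any other measured gene of the cycle. Of 9 measured genes listed as other NADPH-producing dehydrogenases or their folate-pathway relatives, H6PD of the endoplasmic reticulum was higher (0.19, adjusted p = 0.0336). ALDH1L2, the mitochondrial formyltetrahydrofolate dehydrogenase, was lower (-0.43, adjusted p = 0.0224), as was GLUD1, which makes 2-oxoglutarate from glutamate and whose probes can also match its near-identical copy GLUD2 (-0.28, adjusted p = 0.00552). PGD of the pentose phosphate pathway differed by 0.14 and did not pass (adjusted p = 0.2).

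Beside NADK, 18 genes of NAD and NADP supply and breakdown were measured, of which 4 were higher, 0 were lower and 14 were not called. Over the list, 8 differences were positive and 10 negative, with a median of -0.01. NAMPT, the rate-limiting enzyme of NAD salvage, had log2 values of 0.55, 0.54 and 0.40 on the LP-1/Cfz arrays, against 0.11, 0.05 and 0.12 on the LP-1 arrays. It was higher on every LP-1/Cfz array, with a difference of 0.41 (adjusted p = 0.00251). QPRT and KYNU, enzymes of NAD synthesis from tryptophan, were higher by 0.33 and 0.22 (adjusted p = 0.00496 and 0.0354). The other listed enzymes of that route were not called, and their differences ran in both directions. NADK2, the mitochondrial NAD kinase, was higher by 0.27 (adjusted p = 0.0278), while its cytosolic relative NADK did not pass. The difference between NADK2 and NADK was not tested.

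Isocitrate dehydrogenases make 2-oxoglutarate, and of 10 measured genes that make, use or clear it or 2-hydroxyglutarate, 1 was higher, 4 were lower and 5 were not called. PSAT1, which yields 2-oxoglutarate in serine synthesis, had log2 values of -1.20, -1.15 and -1.37 on the LP-1/Cfz arrays, against 0.48, 0.50 and 0.47 on the LP-1 arrays. BCAT1, the cytosolic branched-chain aminotransferase, had -0.12, -0.30 and -0.26 on the LP-1/Cfz arrays, against 0.89, 0.85 and 0.88 on the LP-1 arrays. Both were lower on all LP-1/Cfz arrays and by more than IDH2, with differences of -1.72 (adjusted p = 3.42e-06) and -1.10 (adjusted p = 2.13e-05). The aspartate aminotransferase GOT1 (-0.24, adjusted p = 0.0247) and OGDHL (-0.27, adjusted p = 0.0296) were also lower. D2HGDH, the mitochondrial enzyme that clears D-2-hydroxyglutarate, was higher (0.33, adjusted p = 0.0136).

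Of 13 measured carriers of the inner mitochondrial membrane, 1 was higher and 3 were lower. SLC25A13, an aspartate-glutamate carrier, was higher (0.35, adjusted p = 0.00361). UCP2 had the largest difference (-0.56, adjusted p = 0.000261), and SLC25A11, which exchanges malate for 2-oxoglutarate (-0.26, adjusted p = 0.00856), and the phosphate carrier SLC25A3 (-0.18, adjusted p = 0.0389) were also lower. Of 9 mitochondrial or shared antioxidant enzymes, most of which work in the glutathione and thioredoxin systems that NADPH keeps reduced, 0 were higher and 2 lower, namely GPX4 (-0.26, adjusted p = 0.0143) and glutathione reductase, GSR (-0.20, adjusted p = 0.0363). Of 17 genes that mark mitochondrial content, 2 were higher, LONP1 (0.34, adjusted p = 0.00401) and PHB2 (0.26, adjusted p = 0.00695). Lower were VDAC3 (-0.47, adjusted p = 0.000882), TWNK (-0.45, adjusted p = 0.00313), TOMM40 (-0.34, adjusted p = 0.00378) and TFAM (-0.31, adjusted p = 0.00856), and the median of the list was -0.05. The part of mitochondrial content in the lower values of IDH2 and ME2 was not tested, and of the other mitochondrial members IDH3G was higher by gene, while IDH3A, IDH3B, ME3 and NNT were not called.

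**Figure D5:**
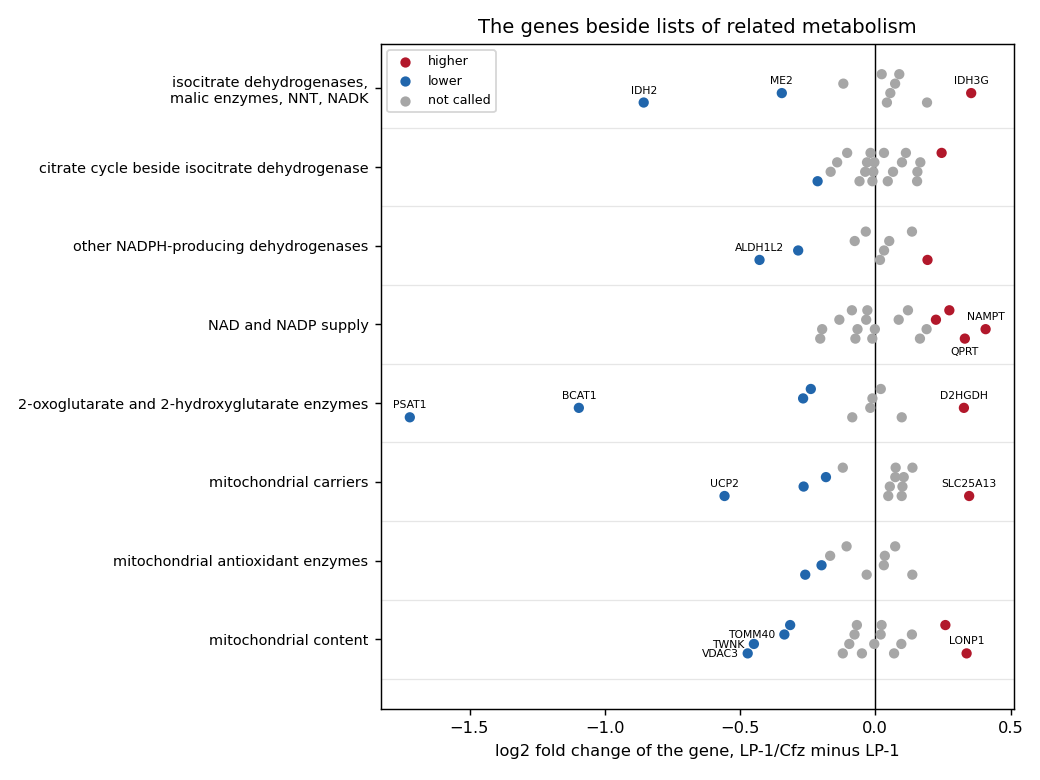
Difference between LP-1/Cfz and LP-1 (x axis, log2 scale) of each measured gene of the isocitrate dehydrogenase and malic enzyme set (top row) and of 7 lists of related metabolism, with genes called higher in red, lower in blue and not called in grey; the vertical offset within a row has no meaning. IDH2 at -0.86 is passed only by PSAT1 and BCAT1 among the genes shown.

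Over the 6 arrays, the genes whose values minus the LP-1 mean lay nearest to those of IDH2 by Euclidean distance, among 19774 genes, were PAXIP1-AS2 (distance 0.106 on the log2 scale), HOOK3 (0.140), ENC1 (0.146), TNFRSF1B (0.153) and SAMD9L (0.154). Their differences between LP-1/Cfz and LP-1 ran from -0.89 to -0.81, beside -0.86 for IDH2. The likeness rests on 2 groups of 3 arrays, so that any gene with a similar difference and a small spread comes near.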

How the data were processed

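LP-1/Cfz and LP-1 cells (3 samples each) were compared on arrays. The deposited table holds 54613 probe sets as log2 values. RMA is named in the submitters' notes without a version. Values are centred for each probe set on a baseline that no source used here states. Scale and direction were compared with fold changes printed in the study's supplementary tables, and all 174 lay within 0.015 of those from the deposited values. All 6 samples were used, and groups were taken from the labels.

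Probe sets took their names from the array's annotation. There, 41091 name 1 gene, 1801 several and 11721 none, and only those with 1 gene were used for genes. The value of a gene is the mean of its probe sets, which are more than 1 for 10523 of 19775 genes. The groups were compared with limma 3.58.1 under R 4.3.3 (lmFit and eBayes, no covariate, two-sided). P-values were adjusted by Benjamini-Hochberg across all probe sets, and for the gene values across all genes, and called at an adjusted p under 0.05. Positive differences mean higher in LP-1/Cfz. Ratios between genes were tested by a two-sided exact permutation test over the arrays. Precision is limited by the 6 arrays, and signal over background cannot be had from centred values. The fits were tested on simulated data before use.

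The members and lists were chosen with earlier results of these data known. Named are all 10 genes with every probe set, up to 4 called genes in each direction in each list, PGD, NFE2L2, KEAP1 and the 5 genes nearest to IDH2. Alternatives were quantile normalization, array weights, a filter on the interquartile range, robust eBayes, the replicate number as a block, each array left out, and for genes the probe set with the largest interquartile range or only plain _at probe sets. Promoter sequences are from RefSeq, build GRCh38.p14.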

Additional observations from a re-analysis of the deposited data

How the results depend on the processing

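IDH2 kept its call by gene and by both probe sets in all 11 alternatives run, ME2 kept it by gene in 11 of 11 and IDH3G in 10 of 10, and NNT 244531_at in 11 of 11. After quantile normalization, which was run on the centred values and not on intensities, the difference of IDH2 by gene was -0.63. Leaving out 1 array at a time gave 3395 to 5355 called probe sets, against 6014 with all arrays, and 2080 to 3183 called genes, against 3312. Of the members, 6 to 7 probe sets and 3 genes were then called. With only plain _at probe sets 2151 genes were called, of which 2 are members, since IDH3G has no such probe set and gave no value, nor did its ratio to IDH3A. With the probe set of largest interquartile range for each gene, 5 member genes and 3845 of all 19775 genes were called. The members gained were ME1 (0.34, adjusted p = 0.0426) and NNT (-0.51, adjusted p = 0.00616). That range was taken over the arrays of both groups, so that a difference between the groups widens it. The choice of probe set was therefore not independent of the test. For ME1 and NNT it fell on the probe set with the largest difference, and these gained calls are not separate evidence. The log2 ratio of IDH2 to IDH1 was -0.62 after quantile normalization and -0.76 with plain _at probe sets, that of IDH2 to IDH3A -0.69 and -0.76, and that of IDH3A to IDH3B turned to -0.0089 and -0.039.

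Differences that changed sign were all small and not called. With array weights they were ME1 204058_at (-0.013), ME3 204663_at (-0.062), NADK 213613_s_at (0.013) and ME3 by gene (-0.0050). After quantile normalization they were NNT 202784_s_at (-0.024) and IDH1 by gene (-0.012), with plain _at probe sets IDH1 (-0.020) and IDH3A (-0.022), with the largest interquartile range IDH3A (-0.022), and without probe set 244531_at NNT (0.014). With 1 array left out, the range crossed 0 for IDH3A 231137_at (-0.084 to 0.023), ME1 204058_at (-0.096 to 0.23), ME3 204663_at (-0.13 to 0.29), NNT 202784_s_at (-0.016 to 0.047), NADK 208917_x_at (-0.025 to 0.085), NADK 213613_s_at (-0.19 to 0.049) and ME3 by gene (-0.030 to 0.20). The cause was not tested.

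Same-numbered arrays of the groups did not deviate together (correlations of -0.05, 0.13 and -0.01), so that the replicate numbers were not taken as pairs. With the replicate number as a block, 4544 probe sets and 2641 genes were called. Of the members, 7 probe sets and 3 genes were called, IDH3G 214333_x_at (adjusted p = 0.0653) and ME2 209397_at (adjusted p = 0.0915) losing the call and ME1 204059_s_at gaining it (adjusted p = 0.0459).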

Other observations

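The genes next to each member on its chromosome, 5 measured genes on each side in the order of the RefSeq table, were read by gene. Around IDH3G on chromosome X, 4 of 10 were higher and 0 lower, with a median difference of 0.18. Over that chromosome 163 genes were higher and 41 lower of 696, with a median of 0.08. Around ME2 on chromosome 18, 0 were higher and 3 lower, with a median of -0.08. Over that chromosome 16 were higher and 36 lower of 303, with a median of 0.01. Around IDH2 on chromosome 15, 1 was higher and 0 lower, with a median of 0.05. Over that chromosome 37 were higher and 39 lower of 612, with a median of 0.02. For the other 7 members, at most 2 of the 10 neighbours were higher and at most 2 were lower. The part of chromosome dosage in the differences of IDH3G and ME2 was not tested.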
